A study of Mus musculus with 6 samples.

Results

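The genes described here are 9 of neuropeptide and dopamine signaling in gonadotropes, out of 47069 genes in a count table of LβT2 cells. Their rows were found by gene symbol, matched through the Ensembl identifiers of the table without their version number. They are Adcyap1, which encodes the ligand PACAP (pituitary adenylate cyclase-activating polypeptide), its receptor gene Adcyap1r1 (PAC1), the somatostatin receptor genes Sstr1, Sstr2, Sstr3 and Sstr5, the dopamine D2 receptor gene Drd2, the neuropeptide B and W receptor gene Npbwr1 and the kisspeptin receptor gene Kiss1r.

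LβT2 is an immortalized mouse gonadotrope line, and the cells were at passage 14. All 6 libraries came from cells given gonadotropin-releasing hormone (GnRH) at 2 nM for 40 min, so no level below is that of unstimulated cells and an effect of GnRH could not be assessed. The cells were detached with trypsin and pelleted, then lysed at once (3 fresh libraries) or kept in the preservative RNA-Best at 4 °C for 4 days or longer before lysis (3 RNA-Best libraries). The question of the comparison was whether preservation left the measured transcripts as they were in fresh cells. Whether the 3 libraries of each group were grown as separate cultures is not in the labels, and p-values therefore measure a spread between libraries that may be technical.

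Depth ranged from 14477304 to 47438746 counts in the fresh libraries and from 4909418 to 11999363 in the RNA-Best libraries, so preservation and depth cannot be told apart without thinning. Of 8 gonadotrope markers, 7 passed the filter on low counts, with Cga at 1410 to 1831 CPM (counts per 1000000 counts of the library) and Lhb at 25.1 to 29.7 CPM. By the edgeR comparison of RNA-Best with fresh libraries used for the members, 4 of these 7 were lower in RNA-Best libraries and 1, Gnrhr, was higher, in a comparison where 50.8% of all genes tested were called. Cga fell from 1813 ± 19.5 to 1426 ± 20.2 CPM (log2 fold change -0.36, adjusted p = 7.56e-14 by edgeR, n = 3 each), and Nr5a1 (-0.21), Pitx1 (-0.22) and Gata2 (-0.07) fell as well. Fshb, the gene of the FSH beta subunit, had 0 counts in all 6 libraries. Of 15 markers of other pituitary, endothelial, blood and stromal cells, Prl, Pax7, Sox2, Ptprc and Dcn had 0 counts in every library, and the summed level was 44.6 to 45.7 CPM in fresh and 41.3 to 43.8 CPM in RNA-Best libraries, most of it Pecam1 at 37.7 to 43.1 CPM. Of the 3 of these tested, 2 were called. Pecam1 was lower in RNA-Best libraries (-0.15, adjusted p = 0.0150 by edgeR) and Tshb higher, from 0.909 to 1.64 CPM (0.91, adjusted p = 0.00350). The part of these markers in the results was not tested. Apart from Gnrhr, the marker changes were not examined under the alternative processing described below for the members. In bulk RNA, fewer expressing cells and less RNA per cell cannot be told apart.

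All 8 receptors are G protein-coupled. PAC1 couples mainly to Gs and raises cyclic AMP, and it can also signal through Gq. Somatostatin receptors, the D2 receptor and the receptor for neuropeptides B and W couple to Gi/o, which lowers cyclic AMP and opens inward rectifier potassium channels, while the kisspeptin receptor couples to Gq. In the pituitary, PACAP is known to act on gonadotropes together with GnRH, dopamine is best known for holding back prolactin release through D2 receptors on lactotropes, and somatostatin for holding back growth hormone release.

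The PAC1 transcript is spliced in cassettes, and a gene-level count sums over the forms. Both cassettes of the third intracellular loop are shown because Adcyap1r1 was by far the most abundant member and these are the sequences that its count cannot separate. In the GENCODE annotation on GRCm38, the first lies on the plus strand at chr6:55487659-55487742, spans 84 bases or 28 codons and is in 2 of 6 transcripts compared. The second, at chr6:55491227-55491310, is also 84 bases long and in 2 of 6 transcripts. Its first 3 bases, in capitals, are absent from the form of 81 bases found in 1 of 6 transcripts. How many reads came from each form was not analysed here.
Adcyap1r1 cassette 1: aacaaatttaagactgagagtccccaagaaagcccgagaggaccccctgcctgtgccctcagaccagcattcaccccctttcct
Adcyap1r1 cassette 2: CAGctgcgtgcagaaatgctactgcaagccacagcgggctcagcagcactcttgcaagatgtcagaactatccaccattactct

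The ligand gene was at or below 2 counts in each library while its receptor gene was the most abundant member, and Sstr2 was the most abundant somatostatin receptor gene per length, so the 250 bases before their annotated starts (RefSeq, GRCm38.p6) are shown. RefSeq windows were matched for 6 of the 9 members, without Sstr1, Sstr5 and Npbwr1. Capitals mark TGACG on either strand (CGTCA on the other), the core of the cyclic AMP response element, whose full form TGACGTCA contains the core on both strands. Of 2 Adcyap1 windows, the upstream one is shown, chr17:93198767-93199016 on the plus strand, which held 1 core and had a GC content of 39.6%. The other, chr17:93198918-93199167, overlaps it, held the same core and also 1 TATAAA (searched with TTTATA), and had a GC content of 42.4%. The Adcyap1r1 window, chr6:55451728-55451977 on the plus strand, held none and had a GC content of 65.6%, with 1 GGGCGG (searched with CCGCCC). The Sstr2 window, chr11:113619077-113619326 on the plus strand, held the full form and 2 GGGCGG and had a GC content of 63.6%.
Adcyap1: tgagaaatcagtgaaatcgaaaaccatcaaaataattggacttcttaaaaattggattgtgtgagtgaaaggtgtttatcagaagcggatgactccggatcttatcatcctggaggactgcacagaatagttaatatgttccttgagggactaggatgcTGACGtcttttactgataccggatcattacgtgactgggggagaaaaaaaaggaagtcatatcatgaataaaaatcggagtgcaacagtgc
Adcyap1r1: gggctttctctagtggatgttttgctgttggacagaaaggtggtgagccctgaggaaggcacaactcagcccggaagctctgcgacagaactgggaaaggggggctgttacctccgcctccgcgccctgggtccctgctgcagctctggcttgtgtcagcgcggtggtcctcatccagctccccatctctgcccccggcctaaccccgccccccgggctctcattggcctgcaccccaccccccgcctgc
Sstr2: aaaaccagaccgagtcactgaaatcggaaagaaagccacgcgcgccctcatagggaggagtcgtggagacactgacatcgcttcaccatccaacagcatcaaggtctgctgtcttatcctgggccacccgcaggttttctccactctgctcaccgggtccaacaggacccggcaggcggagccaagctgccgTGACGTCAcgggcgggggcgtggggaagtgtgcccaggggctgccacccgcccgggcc
Of 32851 such windows over all genes, 17.8% held TGACG, 1.55% held TGACGTCA, 12.4% held TATAAA and 32.7% held GGGCGG, and the median GC content was 52.4%. These matches are descriptions of the letters, since the counts do not measure where transcription started.

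Adcyap1 lies on chromosome 17 (GRCm38 17:93199017-93206537, plus strand). It had 1, 2 and 1 counts in fresh libraries 1 to 3 and 0 counts in each RNA-Best library. Summed over the fresh libraries this was 0.0390 CPM, with an exact 95% interval of 0.0106 to 0.100 CPM. For the RNA-Best libraries together, 0 counts gave an exact interval up to 0.144 CPM, and the level of 3 counts was 0.117 CPM. The PACAP transcript was therefore at or below the limit of 3 counts in every library, a difference between the groups was not detectable at this depth, and no fold change is given. These intervals and limits cover counting error only.

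Adcyap1r1, on chromosome 6 (6:55451978-55501451, plus strand, 16 exons in its longest transcript), was abundant in every library. It had 12349, 14290 and 4162 counts in the fresh libraries and 2817, 1557 and 3767 in the RNA-Best libraries. Scaled by the column totals, these were 304.6, 301.2 and 287.5 CPM in fresh and 321.1, 317.1 and 313.9 CPM in RNA-Best libraries. The highest fresh library lay below the lowest RNA-Best library, so the groups did not overlap, although the means were close at 297.8 ± 9.09 and 317.4 ± 3.59 CPM (SD, n = 3 each). By CPM it ranked 443rd of the 14736 genes that passed the filter on low counts. Per exonic length it ranked lower, at 1339th of 14677 genes. It made up 94.1 to 94.9% of the counts of the 8 receptor members in each library, a share not corrected for length.

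The somatostatin receptor genes were measured at low levels or not at all. Sstr1 (12:58211772-58214444, plus strand) had 0 counts in all 6 libraries, which together allow up to 0.0234 CPM. Sstr5 (17:25489875-25497288, minus strand) had 3, 5 and 3 counts in fresh and 1, 0 and 2 counts in RNA-Best libraries. Summed over libraries this was 0.107 CPM in fresh and 0.117 CPM in RNA-Best, a few reads per library.

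Sstr2 (11:113619342-113626028, plus strand), which lies inside Slc39a11 on the opposite strand and shares 0 exonic bases with it, had 117, 135 and 58 counts in fresh and 33, 22 and 38 in RNA-Best libraries. These were 2.89, 2.85 and 4.01 CPM in fresh and 3.76, 4.48 and 3.17 CPM in RNA-Best libraries, and the groups overlapped. Sstr3 (15:78537008-78544685, minus strand) had 147, 160 and 44 counts in fresh and 32, 20 and 35 in RNA-Best libraries, or 3.63, 3.37 and 3.04 CPM against 3.65, 4.07 and 2.92 CPM. Here the RNA-Best libraries included both the highest and the lowest value, so the groups overlapped as well. As CPM the pair were alike, at 3.25 ± 0.659 and 3.35 ± 0.295 CPM in fresh libraries (SD, n = 3). Sstr3 has 4320 exonic bases and Sstr2 has 2143, so per length Sstr2 stood above Sstr3, by 1.99 ± 0.582 times in fresh and 2.16 ± 0.0731 times in RNA-Best libraries (exact permutation p = 0.6 for the difference between groups, two-sided). The 4 genes summed came to 6.72 ± 0.479 CPM in fresh and 7.44 ± 1.15 CPM in RNA-Best libraries (exact permutation p = 0.5, two-sided, n = 3 each).

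Drd2 (9:49340627-49408177, plus strand, 8 exons) had 302, 415 and 110 counts in fresh and 77, 43 and 102 in RNA-Best libraries. The levels were 7.45, 8.75 and 7.60 CPM in fresh and 8.78, 8.76 and 8.50 CPM in RNA-Best libraries. Fresh library 2 was at the level of the RNA-Best libraries, so the groups overlapped, and the means were 7.93 ± 0.710 and 8.68 ± 0.155 CPM (SD, n = 3 each). Among the dopamine receptor genes outside the members, Drd1 was at 0 in every library, and Drd4, which also couples to Gi/o, was lower than Drd2 by 4.81 to 7.17 times in CPM.

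Npbwr1 (1:5913707-5917398, minus strand, 1 exon) had 59, 68 and 27 counts in fresh and 14, 6 and 18 in RNA-Best libraries, or 1.46, 1.43 and 1.86 CPM against 1.60, 1.22 and 1.5 CPM. Kiss1r (10:79916971-79922273, plus strand, 4 exons) had 38, 53 and 21 counts against 7, 5 and 13, or 0.937, 1.12 and 1.45 CPM against 0.798, 1.02 and 1.08 CPM. Both genes overlapped between groups and had under 20 counts in each RNA-Best library. Kiss1r shares 247 exonic bases with R3hdm4 on the opposite strand. Whether reads were counted by strand is not given in the sources used here, so its count is uncertain over those bases.

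**Figure D1:**
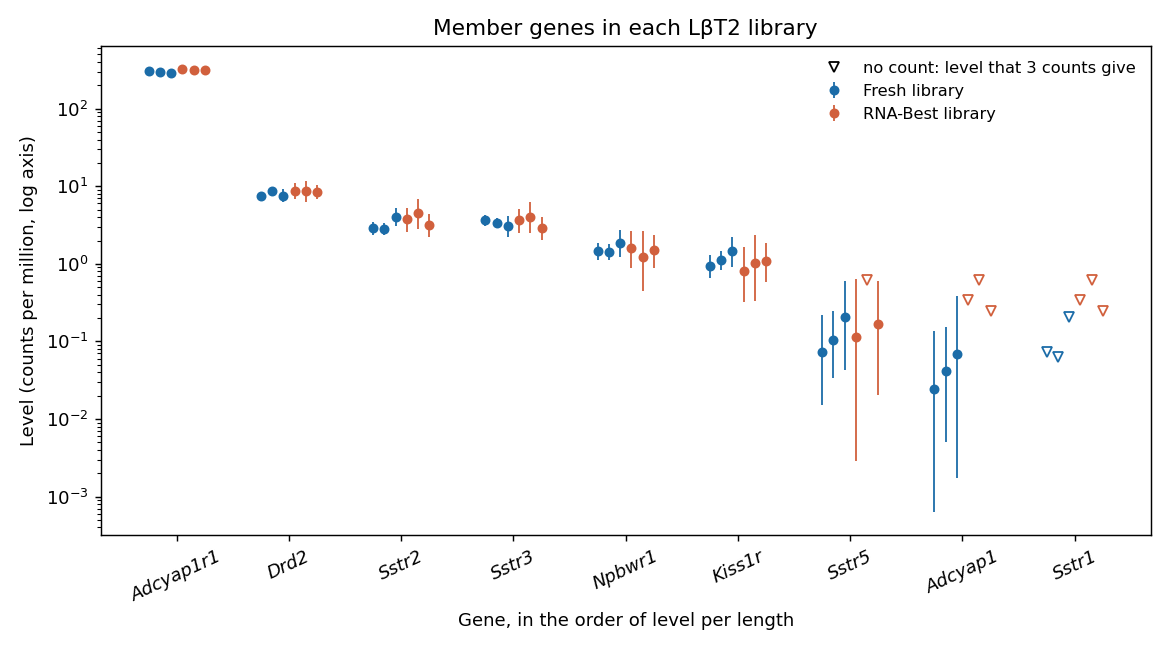
Level of each member in each of the 6 libraries in CPM, on a log axis, with 95% counting intervals as bars and open triangles at the level of 3 counts where a library had 0. Adcyap1r1 lies between 287.5 and 321.1 CPM, and the next member, Drd2, between 7.45 and 8.78 CPM.

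To compare levels between genes, counts were divided by exonic length (giving RPKM, which is CPM per kilobase of exons). The order was Adcyap1r1 at 46.6, Drd2 at 3.26, Sstr2 at 1.64, Sstr3 at 0.798, Npbwr1 at 0.410, Kiss1r at 0.277, Sstr5 at 0.0407 and Adcyap1 at 0.00600 RPKM (means over 6 libraries), with Sstr1 at 0. The step from Adcyap1r1 to Drd2 was 14.3-fold, and the next 4 steps were 1.98-, 2.06-, 1.95- and 1.48-fold. Each of the first 6 neighbouring pairs kept this order in 6 of 6 libraries, without overlap of the ranges within either group. The pairs were set by the means of the same libraries, so this is a description with no p. Sstr5 exceeded Adcyap1 in 5 of 6 libraries, and their ranges overlapped among the RNA-Best libraries, so these neighbours were not separated beyond their spread. The libraries are those of a single cell line, and the order describes that line after GnRH.

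Against a list of 65 receptor genes (the 8 members, the other receptors of their families and 50 other receptors for neuropeptides and hormones), Adcyap1r1 had the highest mean level per length. Of the 65, 19 had 0 counts in every library, 7 stood above 1 RPKM, of which 3 were members, and 3 stood above 10 RPKM. Gnrhr, the GnRH receptor gene, was next at 44.2 RPKM, followed by Mtnr1a, a melatonin receptor gene, at 11.0 RPKM, Crhr1, a corticotropin-releasing hormone receptor gene, at 5.55 RPKM and Oprd1, the delta opioid receptor gene, at 4.43 RPKM. Crhr1 was named after its values were seen. Drd2 was 6th, Sstr2 7th, Sstr3 8th, Npbwr1 11th and Kiss1r 12th.

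The first place differed between the groups. Per length, Adcyap1r1 stood at 1.21 ± 0.0567 times Gnrhr in fresh libraries and at 0.939 ± 0.0336 times Gnrhr in RNA-Best libraries, above it in all 3 fresh and below it in all 3 RNA-Best libraries (exact permutation p = 0.1, two-sided, the smallest that 3 against 3 can give). Gnrhr was 37.2 RPKM in fresh and 51.2 RPKM in RNA-Best libraries, whereas Adcyap1r1 was 45.1 ± 1.38 and 48.1 ± 0.543 RPKM (SD, n = 3 each). These levels are not corrected for GC content. In the edgeR fit, a GC offset took the log2 fold change of Gnrhr from 0.43 to 0.27 and that of Adcyap1r1 from 0.07 to 0.10. Whether the 2 genes still change places with that offset was not tested.

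**Figure D2:**
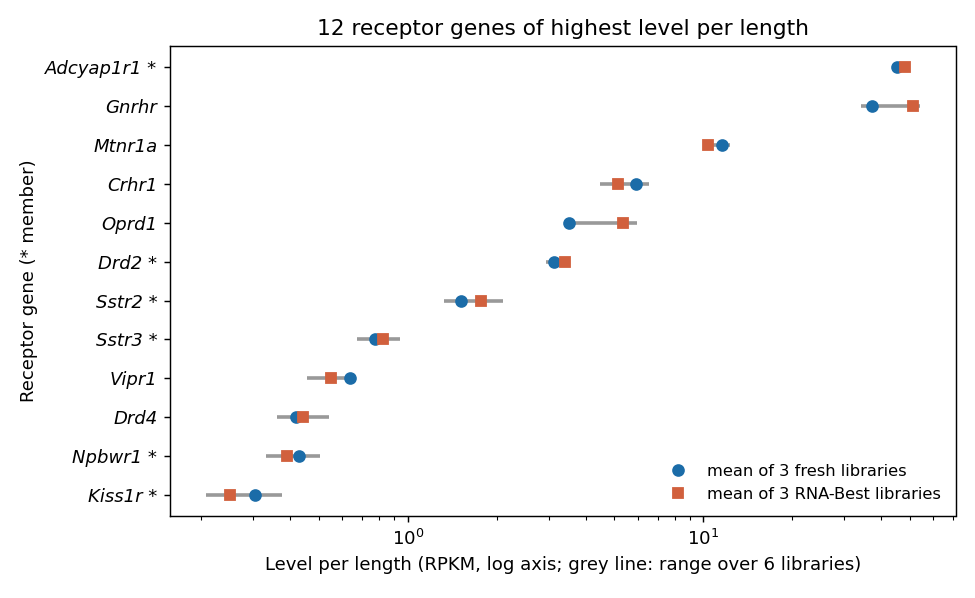
Mean level per length (RPKM, log axis) of the 12 highest of 65 receptor genes, with points for each group, a grey line for the range over 6 libraries and asterisks on members. Adcyap1r1 and Gnrhr stand at 46.6 and 44.2 RPKM, above Mtnr1a at 11.0, and change places between fresh and RNA-Best libraries.

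RNA-Best libraries were then compared with fresh libraries by the quasi-likelihood test of edgeR across all genes, with Benjamini-Hochberg adjustment over the 14736 genes tested. Of the 9 members, 6 passed the filter on low counts, and 1 of those 6, Adcyap1r1, passed an adjusted p of 0.05. Across all genes tested, 50.8% passed, 26% were higher in RNA-Best libraries, and 57.5% had CPM ranges that did not overlap between the groups, which among the members also held for 1 of 6, Adcyap1r1. The members' share was thus not above the background.

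Adcyap1r1 was 0.07 higher in RNA-Best libraries on the log2 scale (SE 0.0296, adjusted p = 0.0375 by edgeR, higher in 3 of 3 libraries), which is 1.05-fold with a 95% interval of 1.01 to 1.10. For comparison, the median absolute log2 fold change over all genes tested was 0.188. The direction depended on the correction for transcript length, since an offset for exonic length gave -0.06 (adjusted p = 0.108), while an offset for GC content gave 0.10 (adjusted p = 0.00651). The call was also lost when the libraries were thinned to equal depth (0.08, adjusted p = 0.0742), and adjusted p ranged from 0.00651 to 0.638 over the alternatives tried. Leaving out fresh library 2, fresh library 3 or any RNA-Best library also ended the call, while the log2 fold change stayed at 0.05 to 0.08. The values were 0.08 without fresh 2 (adjusted p = 0.0532 by edgeR), 0.05 without fresh 3 (0.143), 0.07 without RNA-Best 1 (0.123), 0.07 without RNA-Best 2 (0.0668) and 0.08 without RNA-Best 3 (0.0532).

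**Figure D3:**
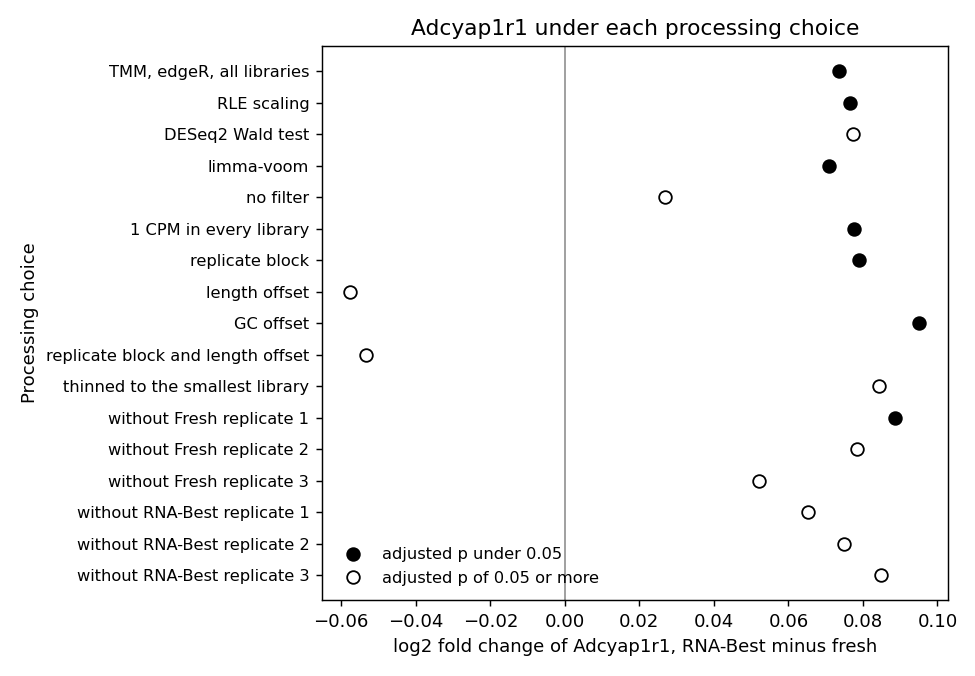
Log2 fold change of Adcyap1r1, RNA-Best minus fresh, under each processing choice, with filled points for an adjusted p under 0.05 and open points otherwise. The values lie between -0.06 with the length offset and 0.10 with the GC offset.

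The other 5 members tested did not pass, and their intervals are those of the edgeR fit to all counts. Drd2 had a log2 fold change of 0.09 (SE 0.110, adjusted p = 0.537 by edgeR), with a fold between 0.910 and 1.24. Sstr2 had the largest value, 0.24 (SE 0.174, adjusted p = 0.250 by edgeR), with a fold between 0.928 and 1.51. After thinning to equal depth Sstr2 was at 0.65 (adjusted p = 0.0527 by edgeR), above that interval, and without RNA-Best library 3 at 0.40 (adjusted p = 0.151). Thinning was a single random draw of counts, so thinned values also carry the sampling noise of that draw. Sstr3 had -0.03 (fold 0.779 to 1.23, adjusted p = 0.899 by edgeR), Npbwr1 -0.04 (fold 0.699 to 1.36, adjusted p = 0.919) and Kiss1r -0.18 (fold 0.587 to 1.33, adjusted p = 0.656). The sign of Sstr3 turned in 7 of 16 alternatives, and after thinning it was at 0.47 (adjusted p = 0.199 by edgeR), also above its interval. With single libraries left out, Kiss1r lay between -0.33 (without RNA-Best 3) and -0.05 (without RNA-Best 1), and Drd2 between 0.02 (without fresh 1) and 0.19 (without fresh 2). The intervals widened as counts fell, from a narrow one for Adcyap1r1 to far wider ones for Kiss1r. Adcyap1, Sstr1 and Sstr5 did not pass the filter. The median over the 6 members tested was 0.02, against -0.00740 over all genes tested. It was not stable, at -0.04 with the length offset (all genes also -0.04), 0.07 with the GC offset, 0.28 after thinning (4 members tested), and between 0.00740 (without RNA-Best library 1) and 0.0976 (without RNA-Best library 3) with single libraries left out, against 0.0136 without fresh library 2, 0.0366 without fresh library 3 and 0.0489 without RNA-Best library 2.

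**Figure D4:**
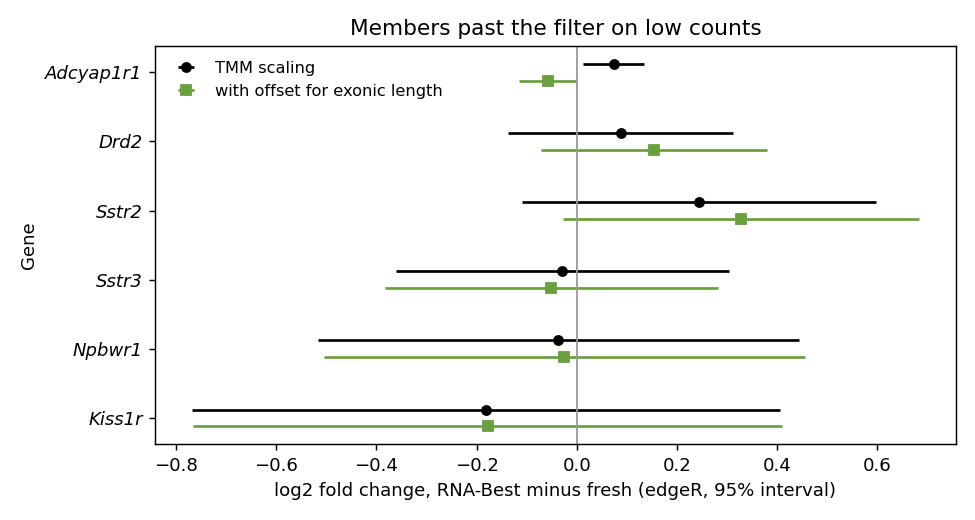
Log2 fold change, RNA-Best minus fresh, of the 6 members that passed the filter, from edgeR, with 95% intervals. Values are shown with TMM scaling alone and with an offset for exonic length. With TMM scaling the interval of Adcyap1r1 lies above 0 and those of the other 5 members include 0. With the length offset all 6 intervals include 0, that of Adcyap1r1 running from -0.116 to 0.000461.

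Genes around the members were read from fixed lists. Of 15 other receptors, ligands and enzymes of the same families, 14 were in the table (Kiss1 was not analysed here), and Sstr4, Drd1, Vip and Npw were at 0 in every library. Of these, 3 were tested and 0 were called by edgeR, 0 at an unadjusted p under 0.05 and 0 by each of the other tests run, beside 50.8% of all genes tested. Ddc, the dopa decarboxylase gene, had a log2 fold change of -0.23 (adjusted p = 0.139 by edgeR). Vipr1, a receptor gene for VIP that also binds PACAP, had -0.16 (adjusted p = 0.467), and Drd4 had 0.12 (adjusted p = 0.735).

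Of 51 other neuropeptide and hormone receptor genes, 50 were in the table (Galr3 was not analysed here), 16 were at 0 in every library and 5 were tested. Oprd1 rose from 14.2 ± 0.502 to 21.5 ± 2.31 CPM (log2 fold change 0.54, adjusted p = 3.50e-07 by edgeR), and Gnrhr rose from 119.0 to 163.8 CPM (0.43, adjusted p = 5.66e-11, and 0.27 with the GC offset). Mtnr1a fell from 23.7 to 21.2 CPM (-0.17, adjusted p = 0.0440 by edgeR), a call that was lost in 9 of 16 alternatives, among them DESeq2 (adjusted p = 0.154), limma-voom (0.0624), the length offset (0.383), thinning (0.518) and the omission of fresh library 1 (0.217), RNA-Best 1 (0.0863), RNA-Best 2 (0.0961) or RNA-Best 3 (0.151). The other 2 genes tested did not pass. The 3 of 5 called stand beside 50.8% of all genes tested.

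Of 35 genes of receptor coupling (G protein alpha subunits, adenylyl cyclases, protein kinase A and its targets, the cyclic AMP effectors Rapgef3 and Rapgef4, phosphodiesterase 4 and potassium channel genes), 28 were tested, 12 were higher and 3 lower in RNA-Best libraries, and 13 did not pass. The share called, 53.6%, was near the 50.8% of all genes tested. With the length offset 6 were higher and 2 lower. The list's median log2 fold change was 0.18, against -0.00740 over all genes, and 0.03 with the length offset, against -0.04. The median exonic length of the list was 6528 bases, against 3925 over all genes tested, and its part in the result was tested only by that offset.

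The adenylyl cyclase genes, whose products make cyclic AMP, were not uniform. Adcy9 rose from 5.35 to 9.73 CPM (log2 fold change 0.83, adjusted p = 1.82e-07 by edgeR) and Adcy3 by 0.80 (adjusted p = 0.00474). The Adcy3 call was lost after thinning (0.70, adjusted p = 0.150 by edgeR) and without RNA-Best library 1 (0.60, adjusted p = 0.102), and the gene did not pass a filter of 1 CPM in every library. Adcy5, the most abundant of them, was at 605.5 CPM in fresh and 622.8 CPM in RNA-Best libraries (0.03, adjusted p = 0.418 by edgeR), a value that was -0.13 with the length offset (adjusted p = 0.000118) and 0.14 with the GC offset (adjusted p = 2.44e-05). Kcnj6, the gene of a potassium channel opened by Gi/o-coupled receptors, rose from 9.15 to 15.4 CPM (0.72, adjusted p = 3.29e-08 by edgeR).

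Of the G protein genes, Gnao1, encoding the Go alpha subunit, rose by 0.46 on the log2 scale (adjusted p = 2.00e-08 by edgeR), and by 0.18 with the length offset (adjusted p = 0.0101). Gnas, encoding the Gs alpha subunit, was counted at 15.9 CPM in fresh and 22.7 CPM in RNA-Best libraries (0.44, adjusted p = 2.61e-05 by edgeR, 0.16 with the length offset, adjusted p = 0.117, and 0.22 with block and length offset, adjusted p = 0.0154). Gnas shares 2457 of its 11186 exonic bases with genes on the opposite strand, Adcy3 1380 bases, Kcnj6 380 and Gnao1 284, and these counts are uncertain if reads were counted without regard to strand. In protein kinase A, the regulatory subunit gene Prkar1a rose by 0.09 (adjusted p = 0.00518 by edgeR), which was -0.01 with the GC offset, and the catalytic subunit gene Prkaca was lower (-0.15, adjusted p = 0.000266), a call lost with the length offset (adjusted p = 0.0578).

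All 7 genes of receptor desensitization (receptor kinases and arrestins) were tested, and 3 were higher and 1 lower in RNA-Best libraries, a share called of 57.1% beside 50.8% of all genes tested. Grk3 rose by 0.43 (adjusted p = 2.34e-06 by edgeR), and by 0.22 with the length offset (adjusted p = 0.00808). Arrb1 had 0.17 (adjusted p = 0.0234) and Grk5 0.14 (adjusted p = 0.00555), and both turned negative with the length offset, at -0.12 and -0.01. In all, alternatives ended or turned the Arrb1 call in 8 of 16 cases and the Grk5 call in 6 of 16. Grk2 fell by 0.14 (adjusted p = 0.000282 by edgeR), a call lost with the GC offset (adjusted p = 0.109), and Grk6 had -0.11 (adjusted p = 0.0525 by edgeR) and passed in 5 of 16 alternatives. The list's median was 0.07, against -0.00740 over all genes tested, and -0.01 with the length offset, against -0.04. Values that were not whole, which come from divided reads, occurred among the named genes for Adcy3, Gnao1, Prkar1a, Prkaca, Arrb1, Grk5 and Grk6 and for the markers Cga, Lhb, Nr5a1, Pitx1, Gata2 and Pecam1, and for none of the members.

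**Figure D5:**
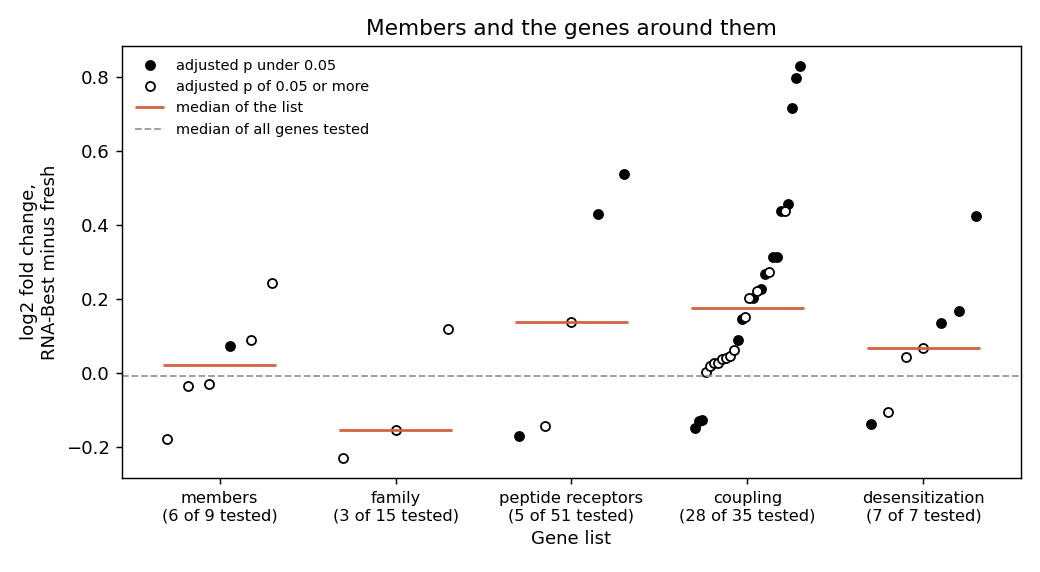
Log2 fold change, RNA-Best minus fresh, of each tested gene among the members and the 4 lists, with filled points for an adjusted p under 0.05, orange lines at list medians and a dashed line at the median of all genes. The members lie between -0.18 and 0.24, while the coupling list reaches 0.83.

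Across the 6 libraries, the genes whose log2 CPM was most like that of Adcyap1r1 were Prkce, encoding protein kinase C epsilon (Pearson r = 0.995), Fam102b (r = 0.993) and Tmem106b, encoding a lysosomal membrane protein (r = 0.990). In total 812 genes had r of 0.9 or more, and all share the libraries, their depth and the preservation groups, so this is a description of 6 points.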

How the data were processed

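A total of 6 RNA-seq libraries of GnRH-treated LβT2 cells were analysed, 3 fresh and 3 RNA-Best. The authors prepared mRNA libraries with a TruSeq kit and sequenced single reads. Per the labels, STAR 2.5.1b and featureCounts 1.5.0-p1 were used with the GRCm38 (mm10) assembly. The deposited table holds estimated counts for each gene, not scaled for library size. In each library 9.36 to 16.3% of the values were not whole, and the setting that divided reads is not given in the sources used here.

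Counts were rounded and analysed in R 4.3.3 with edgeR 4.0.16 (quasi-likelihood test, TMM scaling, filterByExpr with a minimum count of 10, Benjamini-Hochberg adjustment, threshold 0.05). Limma 3.58.1 (voom) and DESeq2 1.42.0 gave alternatives. CPM used the column totals. RPKM used exonic lengths from GENCODE, in a release on GRCm38 later than that of the authors, for the 46488 genes matched. Length and GC offsets were estimated by loess with span 0.5. Exact permutation tests served for single values, and with 3 against 3 libraries their smallest p is 0.1. Libraries held 4909418 to 47438746 counts. Where a count was 0, the limit given is that of 3 counts. Intervals of counts are exact binomial (Clopper-Pearson).

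The main fit did not pair libraries by replicate number, and no pairing by number was seen. Members and lists were chosen with earlier results of these data known. Named were all members, from each list up to 5 called genes of largest change and up to 3 tested genes of highest mean CPM, and the 3 genes most like Adcyap1r1. Alternatives covered scaling, the filter, the tool, a replicate block, both offsets, thinning to equal depth (a single random draw) and the omission of each library.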

Additional observations from a re-analysis of the deposited data

How the results depend on the processing

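The order of member levels per length was the same under all 8 alternatives tried. For pairs already in order in every library, scaling whole libraries or leaving a library out could not change it. For those pairs, only the use of the longest transcript length could have done so. The number of members called, 1, fell to 0 with the DESeq2 Wald test, without a filter, with the length offset, with the length offset and replicate block together and after thinning, and was 0 to 1 with single libraries left out (kept only without fresh library 1). Adcyap1r1 was then 0.08 (adjusted p = 0.0621) with DESeq2, 0.03 (0.638) without a filter, -0.0575 with the length offset and -0.0532 (adjusted p = 0.144) with length offset and block. Coupling genes called fell from 15 to 8 with the length offset, with and without the block, and desensitization genes from 4 to 2 after thinning (3 to 5 with single libraries left out). Genes called ranged from 5227 (thinned) to 7637 (no filter), around 7479, of which 51.2% were higher in RNA-Best libraries. With the length offset 2330 were higher and 3636 lower (39.1% higher).

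Sstr3 changed sign, to 0.00934 with DESeq2, 0.0433 with the replicate block, 0.0541 with the GC offset, 0.0194 with block and length offset, 0.470 after thinning (adjusted p = 0.199) and -0.0982 to 0.139 with single libraries left out, as did Npbwr1 (-0.0955 to 0.0229) and Drd4 (-0.0393 to 0.202) with single libraries left out. Adcy5 was -0.0201 without a filter, -0.129 with the length offset and -0.129 with block and length offset, but 0.140 (adjusted p = 2.44e-05) with the GC offset. Arrb1 was -0.117 with the length offset and -0.103 with block and length offset, Grk5 -0.0128 and -0.0335. With the GC offset Prkar1a was -0.0138 and Tmem106b -0.0224. The causes were not tested. Of 443 values of 28 named genes under alternatives, 377 kept direction and call.

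The replicate block left 7472 genes called and the same 1 member. Correlations of deviations between same-numbered libraries were -0.00844, 0.0121 and -0.00770, so no pairing by number was seen. Such values cannot exclude a pairing, since the deviations also hold counting noise. Sstr2, Sstr3, Npbwr1 and Kiss1r had 5 to 38 counts in RNA-Best libraries, which limits what could be detected.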
